A study of Mus musculus with 11 samples.

Results

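The genes described here are 38 mouse genes for lysosomal hydrolases, lysosomal membrane proteins and 2 transcription factors of lysosome genes. They were given as a list of symbols, and all 38 were found among the 23284 genes of the count tables. Poly(A) RNA was sequenced from 11 mouse tumors of small cell lung cancer (SCLC), which is a neuroendocrine carcinoma. Every tumor carried the same genotype, given as Rb;p53, TRE-MYCN and LSL-RTTA: Rb and p53 alleles, a MYCN transgene under a doxycycline-responsive promoter, and a doxycycline transactivator that is silent until Cre recombinase removes a stop cassette. MYCN ON stands for 7 tumors kept on doxycycline, and MYCN OFF for 4 tumors taken after 7 days without it. No Cre driver, age or strain is given in the labels, nor whether each tumor is from its own mouse, so errors and tests measure the spread between these tumors. Every tumor carried the transgene, so effects of MYCN and of doxycycline itself cannot be told apart. The list was drawn up by function with MYCN ON and MYCN OFF values of these tumors already known, and the differences of its members between the groups are therefore given as a description, without p-values.

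Lysosomes are acid compartments that break down proteins, glycans, lipids and nucleic acids delivered by endocytosis and autophagy. Their soluble hydrolases are made in the endoplasmic reticulum and most are carried to the lysosome by mannose 6-phosphate receptors, and heavily glycosylated proteins such as LAMP1 and LAMP2 line the membrane. The factors TFEB and TFE3 are known to activate many lysosomal genes through a promoter element built around the E-box CACGTG, a core that MYC-family proteins also bind. Macrophages, including those of the lung alveoli, are rich in lysosomes, so the amount of lung and macrophage RNA in a tumor may bear on the values below.

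The tumors held 8951733 to 13123838 gene-assigned reads each. Mycn, the check of the labels, was higher in every MYCN ON tumor (36.5 to 171 CPM, counts scaled to library size with TMM factors) than in every MYCN OFF tumor (5.63 to 15.7 CPM). The 10 neuroendocrine markers were detected in all 11 tumors, with a summed level of 1703 to 8391 CPM. Lung tissue was spread unevenly. Sftpc, a surfactant protein gene of alveolar epithelium, reached 1227 to 9505 CPM in tumors 1, 3 and 4 of MYCN OFF and 1313 and 450.1 CPM in tumors 5 and 3 of MYCN ON. These 5 tumors are called lung-containing, and the other 6, at 5.86 CPM or less, lung-poor. Neither Sftpc (log2 fold change -3.56, edgeR adjusted p = 0.191) nor Scgb1a1, the club cell secretoglobin (-4.72, adjusted p = 0.0885), passed the test between groups. MYCN OFF tumor 2 was the only lung-poor tumor of its group. All 20 macrophage markers were detected in every tumor, with a summed level of 332 to 1405 CPM in MYCN ON and of 513 to 7603 CPM in MYCN OFF. Of these 20 markers, 11 were lower in MYCN ON by edgeR's adjusted p and 0 higher, and their part in the results below was not tested beyond the fits with a score as covariate. The other 9 were not called. Among them only Cd163 (log2 fold change 1.60) and Marco (1.09) had higher estimates in MYCN ON, and Msr1 was at -0.03. Lyz2, a lysozyme gene, was at 4845, 140, 1146 and 1416 CPM in MYCN OFF tumors 1 to 4 against 83.3 to 537 CPM in MYCN ON. In MYCN OFF tumor 1 Lyz2 alone held 4845 of the summed 7603 CPM. Its highest MYCN ON values, 537 and 441 CPM, were in the lung-containing tumors 5 and 3, with lung-poor tumor 4 at 432 CPM. The cell type that gave the Lyz2 RNA, macrophage or lung epithelium, was not tested. Csf1r, the macrophage growth factor receptor, was at 124, 39.6, 96.1 and 62.4 CPM in MYCN OFF against 16.6 to 49.0 CPM in MYCN ON. C1qa, a complement subunit made by macrophages, was at 150, 73.5, 200.4 and 165 CPM against 25.9 to 79.4 CPM, and Emr1, the F4/80 antigen, at 50.8, 9.61, 33.2 and 15.3 CPM against 4.02 to 16.2 CPM. The macrophage score, the mean log2 CPM of the 20 markers, was 3.74 ± 0.60 (SD, n = 7) in MYCN ON and 4.76 ± 1.13 (n = 4) in MYCN OFF, a difference that did not pass a two-sided exact permutation test (p = 0.0758). The score of the 14 lung markers was 1.89 ± 3.07 against 6.51 ± 3.74 (two-sided exact permutation p = 0.0636). Markers of other cell types were examined too. Of 7 lymphocyte markers tested, 6 were lower in MYCN ON, and their score was -0.60 ± 0.96 in MYCN ON and 1.92 ± 1.73 in MYCN OFF (two-sided exact permutation p = 0.0121). Of 7 endothelial markers 3 were lower and 0 higher, with a median log2 fold change of -1.73. Of 8 muscle markers 0 were called, with a median of -2.21, and of 7 fibroblast markers 0 were called. The part of these cell types in the results was not tested. In bulk RNA, fewer cells of a type and less RNA per cell cannot be told apart.

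Of the 38 lysosomal genes, all of which passed the low-count filter, 34 had a lower estimate in MYCN ON and 4 a higher one. A gene is named called where its edgeR adjusted p over the 15237 genes tested was below 0.05. By that rule 13 members were lower in MYCN ON, 0 were higher and 25 were not called. Of all genes tested, 13.4% were called lower and 16.0% higher in MYCN ON. Because the list was drawn up with this contrast known, nothing is read from the difference between these shares. The median log2 fold change, MYCN ON over MYCN OFF, was -0.56 over the members and 0.00 over all genes tested. The MYCN ON and MYCN OFF ranges did not overlap for 8 members, as for 16.8% of all genes. These 8 were Tfeb, Naglu, Pld3, Hexa, Arsa, Grn, Smpd1 and Gaa, all lower in MYCN ON, a direction seen without overlap in 5.41% of all genes. The scaling bears on these counts: with library totals in place of TMM factors the median of all genes moved to -0.31, and 24 members were called lower, the 13 among them and also Arsb, Ctsa, Ctsd, Ctsf, Lamp2, Lipa, Npc1, Npc2, Ppt1, Tfe3 and Tpp1. With DESeq2 19 were called lower, the 13 and Ctsa, Ctsd, Ctsf, Lipa, Npc2 and Tfe3. Of the 15237 genes tested, 3347 were called lower with library totals and 2925 with DESeq2, beside 2038 with TMM factors. Of all called genes, 45.5% were lower in MYCN ON with TMM factors. Library totals made this share 71.8%, and upper quartile factors made it 63.0%.

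**Figure D1:**
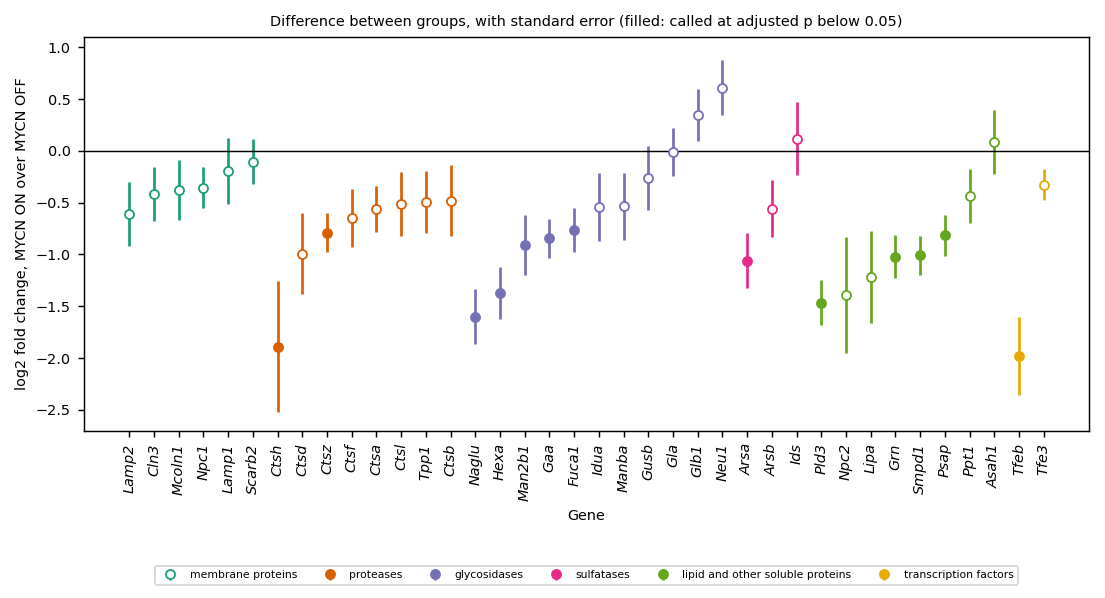
Log2 fold change (MYCN ON over MYCN OFF, y axis) with its standard error for each of the 38 genes (x axis), coloured by role, for 7 MYCN ON and 4 MYCN OFF tumors. Filled points are the 13 called genes, all below 0, and the 6 membrane protein genes are all open.

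Tfeb had the largest difference of the 38 genes. TFEB is a basic helix-loop-helix leucine zipper factor that moves to the nucleus when the kinase mTORC1 is inactive. Tfeb was at 17.9, 16.5, 17.2 and 12.3 CPM in MYCN OFF tumors 1 to 4, and at 1.24 to 5.81 CPM with a median of 4.59 CPM in MYCN ON. All 4 MYCN OFF tumors lay above all 7 MYCN ON tumors, and MYCN OFF tumor 2, which is lung-poor, lay between the others. The log2 fold change was -1.98 (SE 0.38), a 3.95-fold higher level in MYCN OFF. These are low levels, resting on 14 to 74 reads in MYCN ON tumors and 131 to 255 in MYCN OFF tumors. Tfe3, its close relative, was at 39.0, 45.8, 43.2 and 54.8 CPM in MYCN OFF and at 30.3 to 42.2 CPM with a median of 36.2 CPM in MYCN ON. The Tfe3 ranges overlapped only through MYCN OFF tumor 1, and its log2 fold change of -0.33 (SE 0.15) was not called. Per kilobase of the longest coding transcript, the mean level of Tfe3 was 10.7 CPM in MYCN ON and 13.5 CPM in MYCN OFF, and that of Tfeb was 1.72 and 6.83 CPM.

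The E-box element of lysosomal promoters is shown in 1 window for each of the 9 members that carry GTCACGTG or TCACGTGA, since it is the site through which TFEB and TFE3 are known to act. RefSeq promoter sequences (build GRCm38.p6, 250 bases before to 50 after each annotated start) matched 34 of the 38 genes. The palindrome TCACGTGA was found in 5 of these 34 genes (14.7%) and in 1.12% of all 27025 genes with a promoter sequence. The overlapping motif GTCACGTG, searched on both strands, was found in 9 of the 34 (26.5%) against 2.55% of all genes, and the core CACGTG in 12 (35.3%) against 8.09%. Windows of 30 bases are given 5′ to 3′ on the gene's strand with the motif in capitals.
Ctsd: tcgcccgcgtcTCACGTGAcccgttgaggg
Ctsa: tgagcaaactgTCACGTGAtgcagatgctc
Mcoln1: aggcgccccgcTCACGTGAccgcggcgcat
Cln3: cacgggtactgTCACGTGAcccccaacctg
Gla: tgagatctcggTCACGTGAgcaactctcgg
Naglu: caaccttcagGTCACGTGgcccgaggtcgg
Arsa: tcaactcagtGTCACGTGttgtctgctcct
Glb1: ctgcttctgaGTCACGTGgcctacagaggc
Lamp1: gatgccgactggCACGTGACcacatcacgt
The core CACGTG of the Ctsd window (chr7:142387908-142387937, minus strand) began 98 bases before the annotated start. It began 12 bases before the start in Ctsa (chr2:164833749-164833778, plus strand), 45 in Mcoln1 (chr8:3500462-3500491, plus strand), 121 in Cln3 (chr7:126583340-126583369, minus strand) and 194 in Gla (chrX:134601182-134601211, minus strand). In Naglu (chr11:101070009-101070038, plus strand) and Arsa (chr15:89477423-89477452, minus strand) it began 73 and 16 bases before the start, and in Glb1 (chr9:114401018-114401047, plus strand) and Lamp1 (chr8:13159121-13159150, plus strand, where the motif lies on the opposite strand) 48 and 28. Of the 5 members with TCACGTGA (Ctsd, Ctsa, Mcoln1, Cln3 and Gla), 0 were among the called genes, and of the 29 matched members without it 12 were. For GTCACGTG these counts were 2 of 9 (Naglu and Arsa) and 10 of 25. The median log2 fold change was -0.42 with GTCACGTG and -0.65 without it. A match describes the letters in the window and not binding.

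Among the 11 glycosidases, which remove sugars from glycoproteins, glycolipids and glycosaminoglycans, 5 were called lower, 0 higher and 6 not called. Naglu, the N-acetylglucosaminidase of heparan sulfate breakdown, was at 37.9, 23.5, 27.4 and 49.5 CPM in MYCN OFF and at 6.78 to 15.2 CPM with a median of 11.9 CPM in MYCN ON. Every MYCN OFF tumor exceeded every MYCN ON tumor, with a log2 fold change of -1.60 (SE 0.26). Hexa, the alpha subunit of the beta-hexosaminidase that degrades GM2 ganglioside, was at 169, 85.6, 107 and 169 CPM in MYCN OFF and at 33.4 to 72.9 CPM with a median of 47.4 CPM in MYCN ON. The groups did not overlap here either, and the log2 fold change was -1.37 (SE 0.25). Gaa, the acid alpha-glucosidase that digests glycogen, was at 128 ± 33.2 CPM (SD, n = 4) in MYCN OFF and 71.2 ± 13.4 CPM (n = 7) in MYCN ON. Man2b1, the acid alpha-mannosidase, was at 113 ± 47.5 against 60.03 ± 17.9 CPM, with MYCN OFF tumor 2 at 54.5 CPM inside the MYCN ON range, and its call was lost without any one of MYCN ON tumors 2, 4, 6 and 7 and MYCN OFF tumors 1, 3 and 4. Fuca1, the alpha-fucosidase, was at 68.4 ± 21.3 against 40.3 ± 8.15 CPM and was not called without MYCN OFF tumor 1. The 6 uncalled genes differed by at most 0.61 in either direction. Neu1, the lysosomal sialidase, had the highest estimate of all 38 genes, at 55.5 ± 16.0 CPM in MYCN ON and 36.4 ± 9.72 CPM in MYCN OFF (log2 fold change 0.61, SE 0.26). Glb1, the beta-galactosidase that the same multienzyme complex holds, was at 21.4 ± 5.95 against 16.8 ± 2.72 CPM (0.35, SE 0.25). Gla, alpha-galactosidase A, was at 16.2 ± 1.93 and 16.3 ± 5.15 CPM (-0.01, SE 0.23). Gusb, beta-glucuronidase, was at 46.7 ± 20.1 against 56.0 ± 17.2 CPM, and Manba, beta-mannosidase, at 24.8 ± 9.64 against 35.9 ± 11.2 CPM. Idua, the iduronidase of heparan and dermatan sulfate breakdown, was at 9.66 ± 3.72 against 14.1 ± 3.90 CPM.

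The sulfatases differed from each other. Arsa, the arylsulfatase that degrades the myelin lipid sulfatide, was at 26.2, 20.4, 21.5 and 32.2 CPM in MYCN OFF and at 6.99 to 16.2 CPM with a median of 11.1 CPM in MYCN ON. The Arsa values of the groups did not overlap, and the gene was called lower (-1.06, SE 0.26). Arsb, the sulfatase of dermatan and chondroitin sulfate, was at 46.5, 71.1, 59.9 and 72.9 CPM in MYCN OFF and at 22.9 to 76.8 CPM with a median of 40.6 CPM in MYCN ON. Its highest value of all tumors was in MYCN ON tumor 2, and the difference of -0.56 (SE 0.27) was not called. Ids, the iduronate sulfatase, was at 150, 133, 153 and 224 CPM in MYCN OFF and at 102 to 347 CPM with a median of 165 CPM in MYCN ON. The MYCN ON tumors spanned the whole MYCN OFF range of Ids (log2 fold change 0.12, SE 0.35).

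Of the 8 genes for lipid breakdown and other soluble proteins, 4 were called lower and 0 higher. Pld3, a membrane-bound hydrolase of the phospholipase D family with exonuclease activity, was at 212, 82.8, 157 and 167 CPM in MYCN OFF and at 46.2 to 66.5 CPM with a median of 59.0 CPM in MYCN ON. The lowest MYCN OFF value of Pld3 was in tumor 2 and still exceeded all MYCN ON tumors (log2 fold change -1.47, SE 0.22). Smpd1, the acid sphingomyelinase, was at 56.0 ± 8.45 CPM in MYCN OFF and 27.8 ± 5.81 CPM in MYCN ON (-1.01, SE 0.18). Grn, the progranulin gene, was at 171 ± 49.95 against 84.3 ± 16.8 CPM (-1.02, SE 0.21). Psap, the precursor of the saposin cofactors of sphingolipid hydrolases, was the member with the highest level per kilobase, at 379 CPM in MYCN ON and 667 CPM in MYCN OFF. Psap was at 2069, 1084, 1841 and 2099 CPM per gene in MYCN OFF, of which tumor 2 lay inside the MYCN ON range of 825 to 1226 CPM (-0.82, SE 0.20). Npc2, the soluble cholesterol carrier of lysosomes, was at 927, 61.0, 235 and 272 CPM in MYCN OFF and at 86.3 to 311 CPM with a median of 120 CPM in MYCN ON. The lowest and the highest of all Npc2 values were both in MYCN OFF, and its difference of -1.39 (SE 0.56) was not called. Lipa, the acid lipase that frees cholesterol from its esters, was at 54.5 ± 46.4 against 23.5 ± 6.64 CPM (-1.22, SE 0.44) and was not called, but was called lower with RLE factors, upper quartile factors, library totals, DESeq2 and a minimum count of 50, and without MYCN OFF tumor 2. Ppt1, a depalmitoylating thioesterase, was at 86.6 ± 32.8 against 63.8 ± 16.8 CPM, and Asah1, the acid ceramidase, at 106 ± 46.1 against 113 ± 40.7 CPM.

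**Figure D2:**
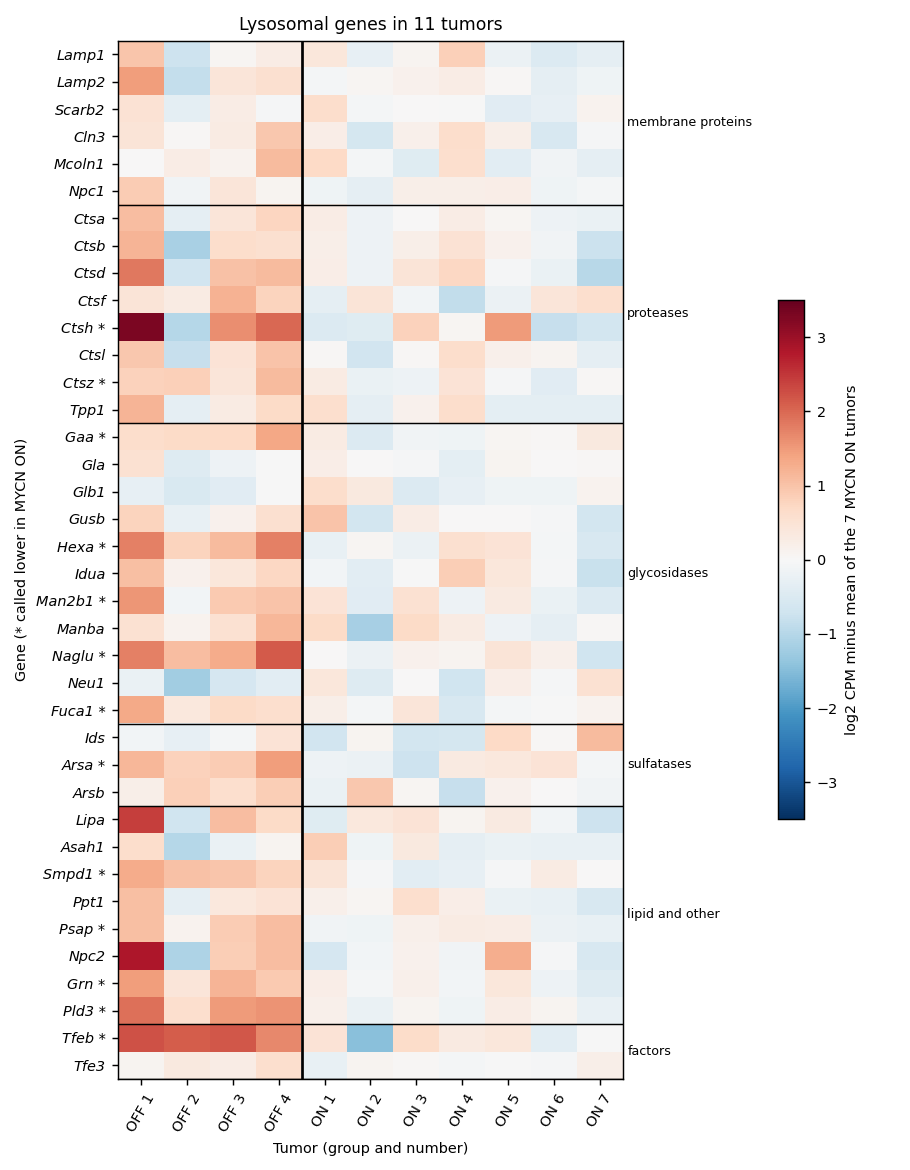
Level of each gene (rows, grouped by role) in each tumor (columns, 4 MYCN OFF left of the line and 7 MYCN ON right of it), as log2 CPM minus the mean of the 7 MYCN ON tumors. MYCN OFF tumor 2 is pale or blue for Ctsb, Ctsd, Ctsh, Lipa and Npc2, where the other MYCN OFF tumors are mostly red, and is as red as they are for Tfeb, Smpd1 and Gaa.

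Of the 8 protease genes, Ctsh and Ctsz were called lower in MYCN ON. Ctsh, a cysteine cathepsin with aminopeptidase activity that is abundant in alveolar type II cells, was at 266, 13.4, 83.5 and 108 CPM in MYCN OFF and at 15.3 to 75.4 CPM with a median of 19.9 CPM in MYCN ON. The lowest of all 11 values was in MYCN OFF tumor 2, and the highest MYCN ON values, 75.4 and 47.4 CPM, were in the lung-containing tumors 5 and 3. The log2 fold change of Ctsh was -1.89 (SE 0.63), and it was 0.06 with the lung score as a covariate. Its call was lost without any one of MYCN ON tumors 1, 2, 4, 6 and 7 and MYCN OFF tumors 1, 3 and 4. Ctsz, a cysteine carboxypeptidase, was at 254 ± 47.6 CPM in MYCN OFF and 147 ± 32.5 CPM in MYCN ON (-0.79, SE 0.19), with MYCN OFF tumor 2 at 259 CPM. Ctsd, the main aspartic protease of lysosomes, was at 1348, 234, 765 and 814 CPM in MYCN OFF and at 192 to 616 CPM with a median of 367 CPM in MYCN ON. MYCN OFF tumors 1, 3 and 4 lay above every MYCN ON tumor and tumor 2 lay inside their range, and Ctsd was not called (-0.99, SE 0.39). Ctsb, a cysteine cathepsin, was at 707 ± 371 against 507 ± 130 CPM, and Ctsl at 245 ± 109 against 172 ± 47.1 CPM. Ctsa, the serine carboxypeptidase that protects Neu1 and Glb1, was at 180 ± 67.1 against 122 ± 17.1 CPM. Ctsf was at 56.9 ± 16.8 against 36.2 ± 12.2 CPM, and Tpp1, a tripeptidyl peptidase, at 92.2 ± 39.4 against 65.3 ± 21.4 CPM. None of these 5 was called in that fit.

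None of the 6 membrane protein genes was called, and their estimates lay between -0.61 and -0.11. Lamp2, a receptor of chaperone-mediated autophagy, was at 373, 75.7, 183 and 202 CPM in MYCN OFF and at 110 to 163 CPM with a median of 141 CPM in MYCN ON. For Lamp2 the MYCN OFF tumors lay on both sides of the MYCN ON range, tumor 2 below it and the other 3 above (log2 fold change -0.61, SE 0.31). Lamp1 was at 704, 218, 377 and 434 CPM in MYCN OFF and at 259 to 641 CPM with a median of 314 CPM in MYCN ON. The Lamp1 ranges overlapped widely (-0.20, SE 0.32). Cln3, the membrane protein lost in juvenile neuronal ceroid lipofuscinosis, was at 34.5, 26.1, 31.1 and 48.8 CPM in MYCN OFF and at 16.5 to 38.4 CPM with a median of 28.6 CPM in MYCN ON (-0.42, SE 0.26). Only MYCN OFF tumor 4 exceeded all MYCN ON tumors for Cln3. Mcoln1, a calcium channel of the lysosomal membrane, was at 46.5 ± 18.2 against 35.8 ± 12.4 CPM. Npc1, the cholesterol exporter, was at 58.0 ± 18.1 against 45.3 ± 6.72 CPM. Scarb2, the receptor that carries glucocerebrosidase to lysosomes, was at 83.9 ± 21.4 against 78.0 ± 19.7 CPM.

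MYCN OFF tumor 2, the lung-poor tumor of its group, took different positions for different genes. For 31 of 38 genes it had the lowest level of the 4 MYCN OFF tumors. Against the 5 lung-poor MYCN ON tumors it lay above all of them for 11 genes, inside their range for 15 and below all of them for 12. The 11 genes above were Tfeb, Tfe3, Naglu, Hexa, Gaa, Fuca1, Arsa, Smpd1, Grn, Pld3 and Ctsz. The 12 below were Lamp1, Lamp2, Scarb2, Ctsa, Ctsb, Ctsh, Ctsl, Gla, Glb1, Neu1, Asah1 and Npc2. Of the 11 above, 10 were among the 13 called genes, and of the 12 below 1 was. The calls were made with tumor 2 among the 4 MYCN OFF tumors, so its position and the calls are not independent. These positions were not counted over all genes. The muscle score of this tumor, 4.71, was the highest of all 11 tumors. It was close to that of MYCN OFF tumors 1 (4.63) and 3 (4.40), with tumor 4 at 0.91 and MYCN ON tumors at 4.33 or less. Acta1 was at 152 CPM and Ckm at 97.9 CPM in tumor 2. The part of muscle RNA in these positions was not tested. The macrophage score of this tumor was 3.39, within the 3.04 to 4.61 of the MYCN ON tumors, and that of MYCN OFF tumor 1 was 6.07. The ratio of MYCN OFF tumor 1 to tumor 2 was 19.9 for Ctsh, 15.2 for Npc2, 8.78 for Lipa, 5.77 for Ctsd and 5.05 for Ctsb. For Tfeb it was 1.08, for Smpd1 1.20, for Arsa 1.29 and for Gaa 0.96. These genes are the ends of a wide spread that called and uncalled genes shared. The median ratio was 1.91 over the 13 called genes (0.96 to 19.9) and 2.03 over the 25 uncalled genes (0.65 to 15.2). Tumor 2 is a single tumor, so these positions have no replicate. MYCN ON tumor 5 and MYCN OFF tumor 3, picked after their values were seen, had lung scores of 7.02 each and macrophage scores of 4.61 and 5.13. In this pair the MYCN ON tumor had the lower level for 31 of 38 genes and for 13 of the 13 called genes, which were called with these same 2 tumors among the 11. The pair was not counted over all genes either and has no replicate, so nothing about the members is read from it.

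**Figure D3:**
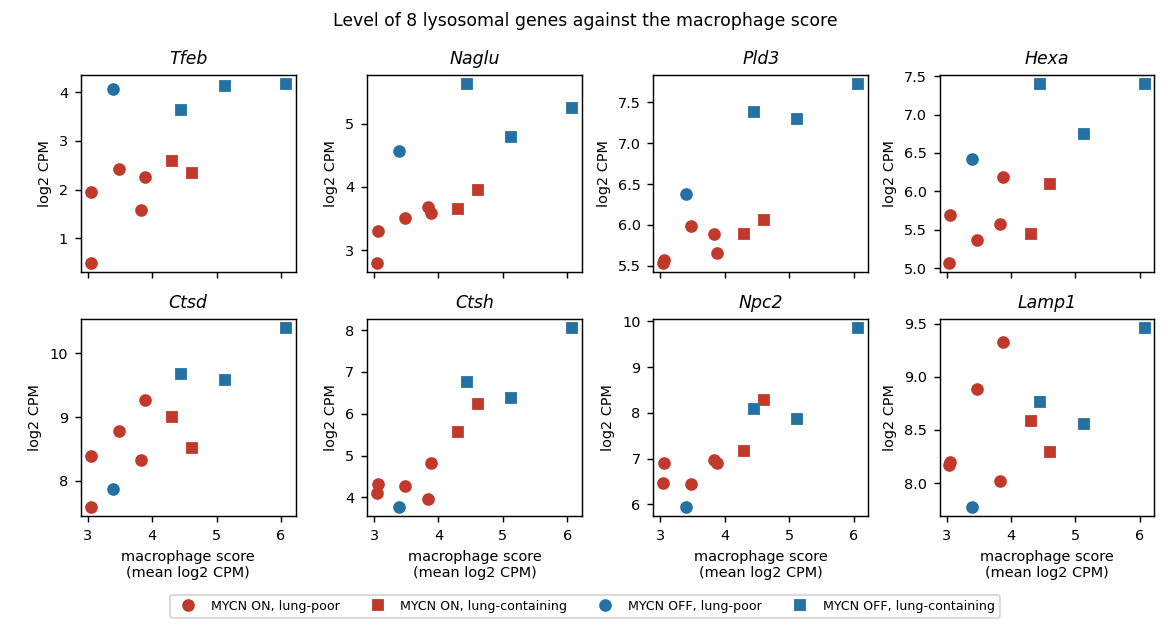
Log2 CPM of 8 genes (y axis) against the macrophage score (x axis) in 7 MYCN ON (red) and 4 MYCN OFF (blue) tumors, squares for lung-containing and circles for lung-poor tumors. For Tfeb, Naglu, Pld3 and Hexa all blue points lie above all red points, and for Ctsd, Ctsh, Npc2 and Lamp1 the blue circle, MYCN OFF tumor 2, lies among or below the red points.

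With the lung score as a covariate in the edgeR fit, 4 of the 13 genes were still called lower in MYCN ON: Tfeb, Naglu, Pld3 and Smpd1. Of all genes, 3.18% were called lower and 7.14% higher in that fit, 10.3% in all. With the macrophage score as the covariate 8 genes were called, Tfeb, Naglu, Pld3, Smpd1, Hexa, Gaa, Grn and Ctsz, beside 5.93% of all genes called lower and 9.66% called higher, 15.6% in all. With both scores together the called genes were Tfeb, Naglu, Pld3, Smpd1 and Hexa, beside 3.96% of all genes called lower and 7.60% called higher, 11.6% in all. In these 3 fits 0 members were called higher. The 2 scores went together: the macrophage score was 4.31 to 6.07 in the 5 lung-containing tumors and 3.04 to 3.88 in the 6 lung-poor tumors. The 3 fits are therefore not separate adjustments, and lung and macrophage content cannot be told apart by them. The log2 fold change without and with both scores was -1.98 and -1.73 for Tfeb, -1.60 and -1.26 for Naglu, -1.47 and -0.98 for Pld3, -1.01 and -1.06 for Smpd1, and -1.37 and -1.06 for Hexa. For 10 genes the sign changed, among them Ctsh (-1.89 to 0.11), Npc2 (-1.39 to 0.35), Lamp2 (-0.61 to 0.14) and Ctsb (-0.48 to 0.27). Ctsd went from -0.99 to -0.20 and Lipa from -1.22 to -0.05. The mean scores were higher in MYCN OFF (macrophage 4.76 against 3.74, lung 6.51 against 1.89), though neither difference passed its exact permutation test. A covariate can therefore take up part of a group difference. The 5 lung-containing tumors were MYCN ON tumors 3 and 5 and MYCN OFF tumors 1, 3 and 4. Their lung scores were not matched, at 5.17 and 7.02 in MYCN ON and 7.02 to 9.93 in MYCN OFF. Among them 36 of 38 genes had a lower estimate in MYCN ON, with a median of -0.73, beside 52.4% of all genes. Within the 6 lung-poor tumors 19 of 38 did, with a median of -0.03, beside 48.0% of all genes. MYCN OFF tumor 2 was the only MYCN OFF tumor among these 6, so their estimates have no replicate in that group. EdgeR called 0 genes in either subset, members included. In the lung-containing tumors 3898 of 15690 genes tested, and 15 of the 38 members, had an unadjusted edgeR p below 0.05.

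**Figure D4:**
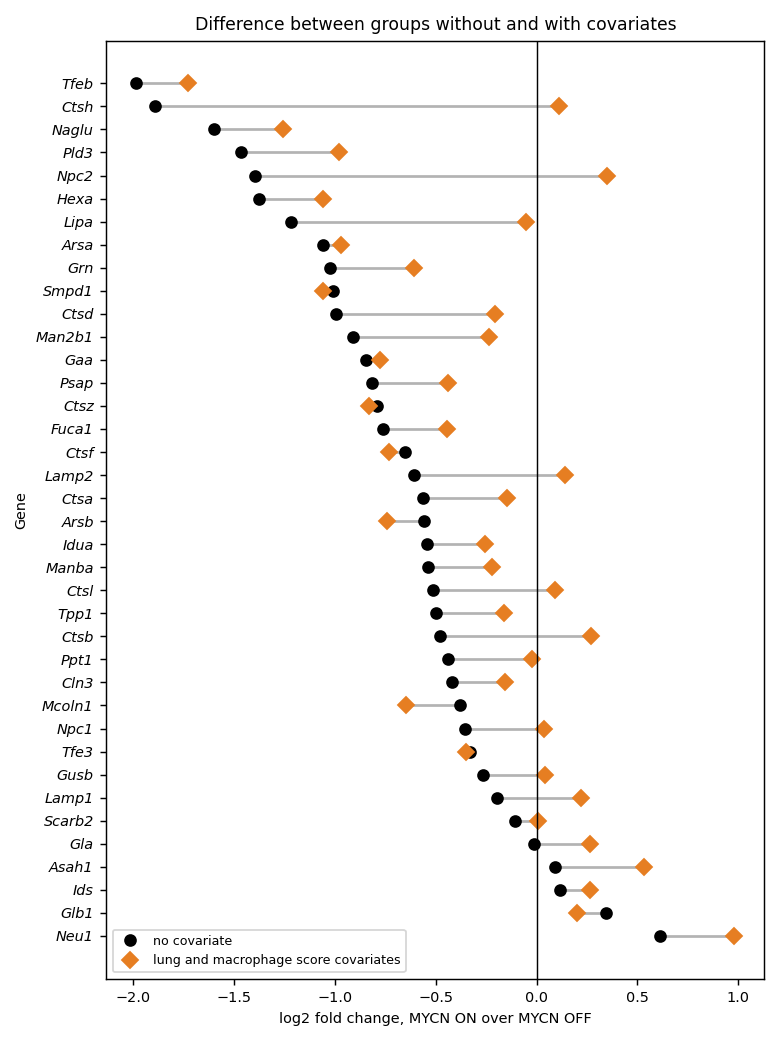
Log2 fold change (MYCN ON over MYCN OFF, x axis) of each gene (y axis, ordered by the fit without covariates) without covariates (black circles) and with the lung and macrophage scores as covariates (orange diamonds). The diamond of Pld3 lies at -0.98 and those of Tfeb, Naglu, Hexa and Smpd1 lie further left, whereas those of Ctsh and Npc2 lie right of 0.

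Within the 7 MYCN ON tumors, Pearson's r between level and macrophage score was above 0 for 25 of 38 genes, and 0 of the 38 relations passed Benjamini-Hochberg adjustment of two-sided exact permutation p-values. Unadjusted, 4 had p below 0.05 by Pearson's r and 5 by Spearman's rho. With library totals in place of TMM factors, r was above 0 for 31 genes, and 7 had an unadjusted exact permutation p below 0.05. These relations were not counted over all genes. Naglu had the highest r, 0.87 (n = 7, exact permutation p = 0.00456, adjusted 0.173; rho 0.89, exact permutation p = 0.0123, adjusted 0.234), and r was 0.90 without MYCN ON tumors 5 and 7, the 2 farthest from the median score. For Ctsh r was 0.84 (exact permutation p = 0.0169, adjusted 0.214; rho 0.75, p = 0.0663, adjusted 0.315) and 0.67 without those tumors. For Npc2 r was 0.80 (exact permutation p = 0.0145, adjusted 0.214; rho 0.75, p = 0.0663, adjusted 0.315) and 0.53 without them. For Tfeb r was 0.61 (exact permutation p = 0.138, adjusted 0.403; rho 0.57, p = 0.2, adjusted 0.422) and 0.76 without them. The lung score fell into 2 clusters in these tumors, 5 lung-poor and 2 lung-containing, and a relation to it was not tested.

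Further genes of the pathway were examined as 5 lists of 98 genes, all of which passed the filter. Of these, 19 were called lower in MYCN ON, 6 higher and 73 not called, with a median log2 fold change of -0.23. This is 19.4% lower and 6.12% higher, beside the 13.4% and 16.0% of all genes, and nothing particular to a list is read from its counts. Among 30 other lysosomal enzymes and membrane proteins, 11 were lower and 0 higher, with a median of -0.74. Ctso, cathepsin O, was at 32.1 ± 11.6 CPM in MYCN OFF and 7.13 ± 2.68 CPM in MYCN ON (-2.17, SE 0.31, edgeR adjusted p = 0.00112), and it kept its call with either score as covariate. Man2b2, an alpha-mannosidase (-1.15, edgeR adjusted p = 0.0069), and Ctss, a cathepsin abundant in antigen-presenting cells (-2.03, adjusted p = 0.0101), lost their calls with either score, where the estimates for Ctss were -0.75 and -0.71. Cd68, the macrophage lysosomal glycoprotein, was not called (-0.94).

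Of 19 genes of the V-ATPase, the proton pump that acidifies lysosomes, 3 were lower (15.8%, beside 13.4% of all genes) and 1 was higher, with a median of -0.13. Atp6v0b, a proteolipid subunit of the membrane sector, was at 296 ± 105 CPM in MYCN OFF and 120 ± 28.3 CPM in MYCN ON (-1.30, SE 0.24, edgeR adjusted p = 0.00279) and was also called with either score as covariate. Tcirg1, the a3 subunit, was lower (-1.27, edgeR adjusted p = 0.0223), with -0.27 and -0.30 under the lung and macrophage scores, and it was not called without MYCN OFF tumor 1. Atp6v0c was lower at a level of 4.59 ± 1.47 against 9.32 ± 2.10 CPM (edgeR adjusted p = 0.0352), a level that is uncertain because the gene has close copies in the genome and reads aligned to several places were set aside. The Atp6v0c call was lost with the lung score and without any one of 7 tumors (MYCN ON 2 to 6, MYCN OFF 3 and 4). Atp6v1h, a regulatory subunit, was higher in MYCN ON (0.57, SE 0.14, edgeR adjusted p = 0.014) and was not called with library totals (0.26), upper quartile factors (0.35), the lung score (0.61) or without MYCN ON tumor 1 (0.47).

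Of 10 genes for delivery of enzymes to lysosomes, 2 (20%) were lower and 2 higher, beside 13.4% and 16.0% of all genes. Sort1, the sorting receptor sortilin, was at 238 ± 38.2 CPM in MYCN OFF and 142 ± 18.9 CPM in MYCN ON (-0.75, SE 0.15, edgeR adjusted p = 0.00473). Gga2 (0.89, edgeR adjusted p = 0.0135) and Gga1 (-0.66, adjusted p = 0.0144), both adaptors of receptor sorting at the Golgi, differed in opposite directions. Gga2 was not called with either score, and Gga1 was not called with the lung score or without MYCN OFF tumor 4 (-0.51). Gnptab, which encodes subunits of the enzyme that starts the mannose 6-phosphate tag, was at 75.1 ± 14.2 against 44.7 ± 16.2 CPM (0.75, edgeR adjusted p = 0.0291), and neither Gnptab (0.44) nor Gga2 (0.57) was called with library totals. Gnptab also missed the threshold with RLE factors (0.66), upper quartile factors (0.52) and without any one of MYCN ON tumors 1 and 3 and MYCN OFF tumors 2, 3 and 4, and was called with either score. Of 20 autophagy genes 3 (15%) were lower and 0 higher, with a median of -0.13. Optn, the receptor optineurin, was at 32.4 ± 7.99 against 7.32 ± 4.44 CPM (-2.14, SE 0.44, edgeR adjusted p = 0.00536), Sqstm1, the receptor p62, at 335 ± 78.1 against 176 ± 30.3 CPM (-0.93, adjusted p = 0.00363), and Tecpr1, a tether of autophagosomes and lysosomes, at 96.3 ± 45.7 against 41.8 ± 5.26 CPM (-1.20, adjusted p = 0.00614). Gabarapl1, an Atg8 family member, was not called (-0.66, SE 0.26, edgeR adjusted p = 0.0705). Optn, Sqstm1 and Tecpr1 were also called with either score as covariate.

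Among 19 genes for the remaining MiT factors and their control by mTORC1, 3 were higher in MYCN ON (15.8%, beside 16.0% of all genes) and 0 lower, with a median of 0.14. Rheb, the GTPase that activates mTORC1, was at 158 ± 19.4 CPM in MYCN ON and 99.6 ± 5.30 CPM in MYCN OFF (0.66, SE 0.13, edgeR adjusted p = 0.00464). Rragd, a Rag GTPase that recruits mTORC1 to lysosomes, was at 89.5 ± 29.3 against 33.7 ± 15.8 CPM (1.41, SE 0.37, edgeR adjusted p = 0.0158), and Rragb at 67.6 ± 29.5 against 28.8 ± 10.3 CPM (1.23, SE 0.36, adjusted p = 0.0237). Rheb was called with every scaling and with either score as covariate. Rragd was not called with either score (0.95 and 1.12), nor was Rragb, which also missed the threshold with library totals (0.92) and without MYCN OFF tumor 1 or 4. Flcn, folliculin, which acts on the Rag GTPases, was not called (-0.40, SE 0.14, edgeR adjusted p = 0.0552). Mitf, a further MiT factor of macrophages and pigment cells, was not called (-1.63, SE 0.60, edgeR adjusted p = 0.0589), but was called lower with upper quartile factors, library totals, DESeq2, limma voom and a minimum count of 50, and without MYCN ON tumor 7 or MYCN OFF tumor 2.

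**Figure D5:**
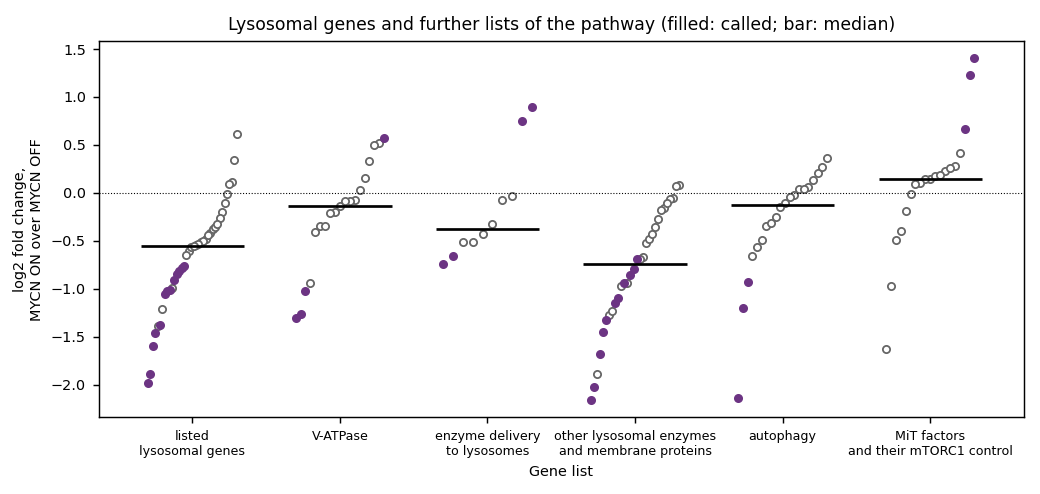
Log2 fold change (MYCN ON over MYCN OFF, y axis) of the 38 listed lysosomal genes and of the 5 further lists (x axis), each point a gene, filled where called, with a bar at the list's median. Medians run from -0.74 for other lysosomal enzymes and membrane proteins to 0.14 for the MiT factors and their mTORC1 control.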

How the data were processed

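For each tumor the authors deposited 1 table of raw counts by gene symbol. Bcl2fastq 1.8.4, TopHat2 2.0.8b, HTSeq 0.6.1 and build mm9 are named in the submitters' processing notes. Neither annotation nor strandedness is given in the sources used here, so overlapping and antisense genes cannot be told apart. Records with no annotated gene made up 14.8% to 21.5% and reads aligned to several places 9.15% to 20.9% of a tumor's records, and these summary rows stayed out of totals and tests.

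The fits used edgeR 4.0.16 in R 4.3.3 (filterByExpr with minimum count 10, TMM factors, quasi-likelihood test, robust dispersion, no covariate), with Benjamini-Hochberg adjustment over 15237 genes. Standard errors were derived from the fold change and its F statistic. CPM use the TMM factors, and scores are means of log2 CPM with a prior count of 2. Lung-containing tumors had at least 100 CPM of Sftpc. Levels per kilobase use transcript lengths from GENCODE M21, an annotation of another build. The fits were tested on simulated data. No pair of tumors in a group agreed within sampling noise (smallest chi-square per gene 50.5).

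The members and all gene lists were chosen with earlier results of these data known. All 4 MYCN OFF values and the lowest, median and highest MYCN ON values are given for Lamp1, Ctsd, Tfeb, Tfe3 and the 2 genes of each role with the largest absolute log2 fold change (all 3 sulfatases), and each further list gives up to 4 genes with the smallest p. One gene that this rule names is not reported here. Psap, Cd68, Mitf, Acta1, Ckm, Cd163, Marco, Msr1 and the sets named by their position in MYCN OFF tumor 2 were added after their values were seen. Alternatives were other scalings, limma voom 3.58.1, DESeq2 1.42.0, other filters, score covariates, subsets, the replicate number as a block and each tumor left out.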

Additional observations from a re-analysis of the deposited data

Results flagged for a closer look

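In 4 of 80 sets of values of 1 gene or score in 1 group, a tumor lay apart from the others by more than Dixon's 95% limit, a rule by which chance sets apart about 1 group in 20. Gaa was at 178 CPM in MYCN OFF tumor 4 against 108 to 115 CPM in the other 3. Gusb was at 87.6 CPM in MYCN ON tumor 1 against 28.03 to 52.4 CPM in the other 6. Arsb was at 76.8 CPM in MYCN ON tumor 2 against 22.9 to 44.5 CPM. Npc2 was at 311 CPM in MYCN ON tumor 5, one of the 2 lung-containing tumors of that group, against 86.3 to 143 CPM.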

How the results depend on the processing

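The 13 calls among the 38 genes were kept with RLE factors, upper quartile factors, library totals, DESeq2, no filter and a minimum count of 50, and limma voom lost Ctsh and Man2b1. The number called lower was 24 with library totals, 4 with the lung score, 8 with the macrophage score, 5 with both, and 0 in the lung-containing and in the lung-poor tumors alone. With each tumor left out in turn it ran from 10 to 20, the highest without MYCN OFF tumor 2, where Ctsa, Ctsb, Ctsd, Ctsl, Lamp2, Lipa and Npc2 were added. Over all genes the number lower then ran from 1015 of 15392 (without MYCN OFF tumor 1) to 2438 of 15506 (without MYCN OFF tumor 2). Ctsh lost its call without any of 8 tumors, Man2b1 without any of 7 and Fuca1 without MYCN OFF tumor 1. The log2 fold change of Ctsh reversed to 0.061 with the lung score, 0.11 with both scores and 0.55 in the lung-poor tumors. Of the further pathway genes, the number lower was 35 with upper quartile factors, 42 with library totals, 31 with DESeq2, 6 with the lung score, 8 with the macrophage score, 5 with both and 0 in each subset. Of all 15237 genes, 2894, 3347, 2925, 485, 904 and 604 were lower in these 6 fits of all tumors, beside 2038 in the main fit. The number of further pathway genes higher was 2 with library totals, 2 with the lung score, 3 with the macrophage score, 2 with both and 0 in each subset. Of all genes, 1317, 1088, 1472 and 1158 were higher in the first 4 of these fits. The macrophage marker score difference of -1.02 passed the exact permutation test with library totals (-1.32) and as the log2 of summed CPM (-1.66), and over tumors left out it ran from -1.47 to -0.58, and passed without MYCN OFF tumor 2 (-1.47). The lung marker score difference of -4.62 ran from -6.39 to -3.48, and passed without MYCN ON tumor 5 (-5.48) or MYCN OFF tumor 2. The causes of these shifts were not tested. Tumors of the same replicate number had correlations of deviations of -0.16, 0.46, -0.08 and 0.26 for numbers 1 to 4. Tumors of different numbers were not compared in this way, so these values cannot settle whether the numbers pair the tumors. With the replicate block 10 members and 9 further pathway genes were called lower, beside 1152 of all 15237 genes. Low depth limits Tfeb, at 14 reads in its lowest tumor.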
